A study of Mus musculus with 10 samples.

Results

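The genes described here encode the enzymes that write, maintain and erase DNA methylation, namely Dnmt1, Uhrf1, Dnmt3a, Dnmt3b, Tet1, Tet2 and Tet3, 7 of the 21829 protein-coding genes with a transcription start site (TSS) on the autosomes, X or Y. Chromatin was measured in primary neural stem and progenitor cells (NSPCs) isolated from the brains of C57BL/6 mice at postnatal day 5 and grown as a mixed culture of stem and progenitor cells. Activated NSPCs grew in 20 ng/ml FGF2 and 20 ng/ml EGF. Quiescent NSPCs were held in 20 ng/ml FGF2 and 25 ng/ml BMP4 without EGF, for 4 days according to the sample labels, while the study's methods for this assay give a shorter time. Reactivated NSPCs spent 4 days in the BMP4 medium and then 9 to 12 days in the activating medium, so they also differ from the other states in time in culture. Accessible chromatin was profiled by ATAC-seq, in which the Tn5 transposase cuts and tags open DNA, with 2 libraries for each of the 3 states, and the promoter mark H3K4me3 by ChIP-seq with 1 library in quiescent and 1 in activated cells. RNA and DNA methylation were not measured in the files used here, so every value below concerns chromatin at these genes and not their expression.

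A peak was assigned to one of the 7 genes when it lay in the gene body or within 50 kb of it and when that gene had the nearest protein-coding TSS. This gave 308 ATAC-seq peaks in the 6 lists, which merged into 56 sites of the 108367 sites found genome-wide, and 12 H3K4me3 regions in quiescent and 9 in activated cells, of 17166 and 15962. A further 312 ATAC-seq peaks near the 7 genes were closer to 22 other genes and were not assigned to them. Sites are numbered along each gene in the direction of transcription. A site was called open in a state when both libraries of that state had a peak there and closed when neither had. The value of a site in a library is its fold enrichment, the ratio of the Tn5 signal at the peak to the local background as the authors' peak caller reported it.

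DNA methylation in mammals is laid down on cytosines of CpG dinucleotides by the de novo methyltransferases DNMT3A and DNMT3B and is copied after each replication by DNMT1, which UHRF1 recruits to hemimethylated DNA. The TET1, TET2 and TET3 dioxygenases oxidise 5-methylcytosine to 5-hydroxymethylcytosine and further products, the first steps of active demethylation. In the postnatal brain DNMT3A and the TET enzymes are known for roles in neurogenesis, and 5-hydroxymethylcytosine is abundant in neurons. H3K4me3 marks promoters with an unmethylated CpG island and repels the DNMT3 enzymes.

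Sequences of 9 of the sites that differed between states are shown first, and other sites that differed are described below. Each window is 151 bases around the strongest summit of a site, 5′ to 3′ on the strand of its gene, in GRCm38/mm10, read from the RefSeq assembly, and all 9 summits lie in introns of their genes. Capitals mark matches, on either strand, to any of 11 short motifs given further on. Dnmt3a site 9 (chr12:3823464-3823614, plus strand), Dnmt3a site 10 (chr12:3833950-3834100, plus) and Tet2 site 5 (chr3:133516269-133516419, minus) had a peak in every library with a higher enrichment in activated than in quiescent cells.
Dnmt3a site 9: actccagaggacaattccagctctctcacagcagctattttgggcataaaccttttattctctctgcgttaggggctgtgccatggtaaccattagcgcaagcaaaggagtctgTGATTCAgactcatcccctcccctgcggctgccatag
Dnmt3a site 10: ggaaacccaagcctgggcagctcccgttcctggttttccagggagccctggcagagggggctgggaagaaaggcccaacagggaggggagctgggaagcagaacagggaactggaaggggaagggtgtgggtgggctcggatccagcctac
Tet2 site 5: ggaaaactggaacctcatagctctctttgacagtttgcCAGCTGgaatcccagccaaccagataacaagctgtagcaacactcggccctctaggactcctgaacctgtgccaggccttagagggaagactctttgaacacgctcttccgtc
Dnmt3a site 13 (chr12:3841267-3841417, plus) and Tet3 site 8 (chr6:83423882-83424032, minus) were closed in quiescent cells and open in the other two states.
Dnmt3a site 13: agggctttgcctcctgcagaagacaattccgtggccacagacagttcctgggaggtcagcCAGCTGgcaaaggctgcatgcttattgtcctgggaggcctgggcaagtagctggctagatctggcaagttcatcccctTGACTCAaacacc
Tet3 site 8: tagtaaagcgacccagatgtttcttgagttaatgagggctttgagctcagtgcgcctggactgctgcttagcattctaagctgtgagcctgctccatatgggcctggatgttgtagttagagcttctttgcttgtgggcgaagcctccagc
Dnmt3a site 17 (chr12:3868774-3868924, plus) was open in quiescent and closed in activated cells.
Dnmt3a site 17: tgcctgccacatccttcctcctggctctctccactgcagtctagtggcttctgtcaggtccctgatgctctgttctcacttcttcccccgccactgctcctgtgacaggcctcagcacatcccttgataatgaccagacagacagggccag
Dnmt1 sites 2 (chr9:20944746-20944896, minus), 3 (chr9:20944129-20944279, minus) and 4 (chr9:20943492-20943642, minus) form a cluster in an intron of Dnmt1 that was closed in quiescent cells and open in reactivated cells.
Dnmt1 site 2: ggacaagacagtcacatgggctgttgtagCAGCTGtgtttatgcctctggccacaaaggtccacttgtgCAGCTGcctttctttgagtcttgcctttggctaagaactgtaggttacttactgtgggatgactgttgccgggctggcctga
Dnmt1 site 3: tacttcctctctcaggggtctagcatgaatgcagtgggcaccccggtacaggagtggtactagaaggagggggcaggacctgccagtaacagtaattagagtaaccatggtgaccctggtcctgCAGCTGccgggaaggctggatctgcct
Dnmt1 site 4: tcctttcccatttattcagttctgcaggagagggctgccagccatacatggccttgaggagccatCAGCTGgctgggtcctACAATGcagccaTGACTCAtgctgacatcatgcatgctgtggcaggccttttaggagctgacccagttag

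Promoters are shown for 4 genes as the 150 bases just before an annotated TSS: Dnmt1 (chr9:20952980-20953129, minus), Uhrf1 (chr17:56303171-56303320, plus), Dnmt3a (chr12:3806377-3806526, plus) and the upstream promoter of Tet3 (chr6:83456393-83456542, minus). They were chosen because the promoter of the maintenance enzyme was the strongest accessible promoter of the set in quiescent cells, and because the Dnmt3a and upstream Tet3 promoters had the largest activated-to-quiescent differences in accessibility among the promoter sites. The Uhrf1 promoter holds the one E2F match of these windows.
Dnmt1 promoter: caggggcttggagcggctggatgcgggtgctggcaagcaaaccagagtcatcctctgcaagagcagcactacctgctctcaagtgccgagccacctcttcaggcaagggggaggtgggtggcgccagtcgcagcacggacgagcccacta
Uhrf1 promoter: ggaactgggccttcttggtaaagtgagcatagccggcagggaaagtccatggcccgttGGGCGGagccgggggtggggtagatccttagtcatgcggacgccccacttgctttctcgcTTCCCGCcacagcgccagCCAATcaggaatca
Dnmt3a promoter: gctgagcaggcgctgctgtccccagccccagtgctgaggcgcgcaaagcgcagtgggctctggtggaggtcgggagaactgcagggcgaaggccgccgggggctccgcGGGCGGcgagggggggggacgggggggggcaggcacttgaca
Tet3 upstream promoter: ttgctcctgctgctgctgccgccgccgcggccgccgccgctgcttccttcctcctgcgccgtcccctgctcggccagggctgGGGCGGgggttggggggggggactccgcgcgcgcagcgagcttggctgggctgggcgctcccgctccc
The Dnmt3a window has 75.3% G and C and 13 CpGs, the upstream Tet3 window 79.3% and 18 CpGs, the Dnmt1 window 64.0% and 7 CpGs and the Uhrf1 window 61.3% and 9 CpGs, where the median over all 54346 such windows was 57.3% and 6 CpGs.

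The whole series was checked before these genes were described. The lists held 47323 to 107137 peaks, and both reactivated lists were the longest although their reads had been downsampled by the authors. Read depth is not given by the lists, but the genome-wide background pileup recovered from them was 12.1 in quiescent replicate 2 and 6.01 to 6.61 in the other libraries. The weakest peaks differed in the same way, with the 1st percentile of fold enrichment at 1.93 in quiescent replicate 2 and 2.22 to 2.31 in the other libraries, and a closed site is one without a called peak and not one shown to lack signal. Promoters of NSPC marker genes carried a peak in all 6 libraries for 6 of 6 genes. Neuronal marker promoters did so for 3 of 4 genes, and oligodendrocyte, microglial and endothelial marker promoters for 0 of 4 genes each, with no peak in any library for 3, 2 and 4 of them. In a mixed culture a change in the share of cells and a change within cells cannot be told apart.

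The 7 genes were accessible in every state. A promoter peak was present in all 6 libraries at each of the 7, which holds for 52.5% of all protein-coding genes. Of the 56 sites, 22 were open in all 6 libraries (39.3%, against 21.3% of all sites), 17 were open in some states and closed in others (30.4%, against 34.0%), 10 had a peak in a single library (17.9%, against 31.0%) and the remaining 7 had mixed peaks. Of the 14 promoter sites, within 1 kb of a TSS, 10 were open in all 6 libraries, and of the 42 distal sites 12 were. The share was thus 71.4% for promoter sites, against 53.7% of all promoter sites, and 28.6% for distal sites, against 13.6% of all distal sites. The 10 sites with a peak in 1 library were weak, with fold enrichments of 2.29 to 3.58, and 6 of them were seen in a reactivated, 3 in an activated and 1 in a quiescent library.

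**Figure D1:**
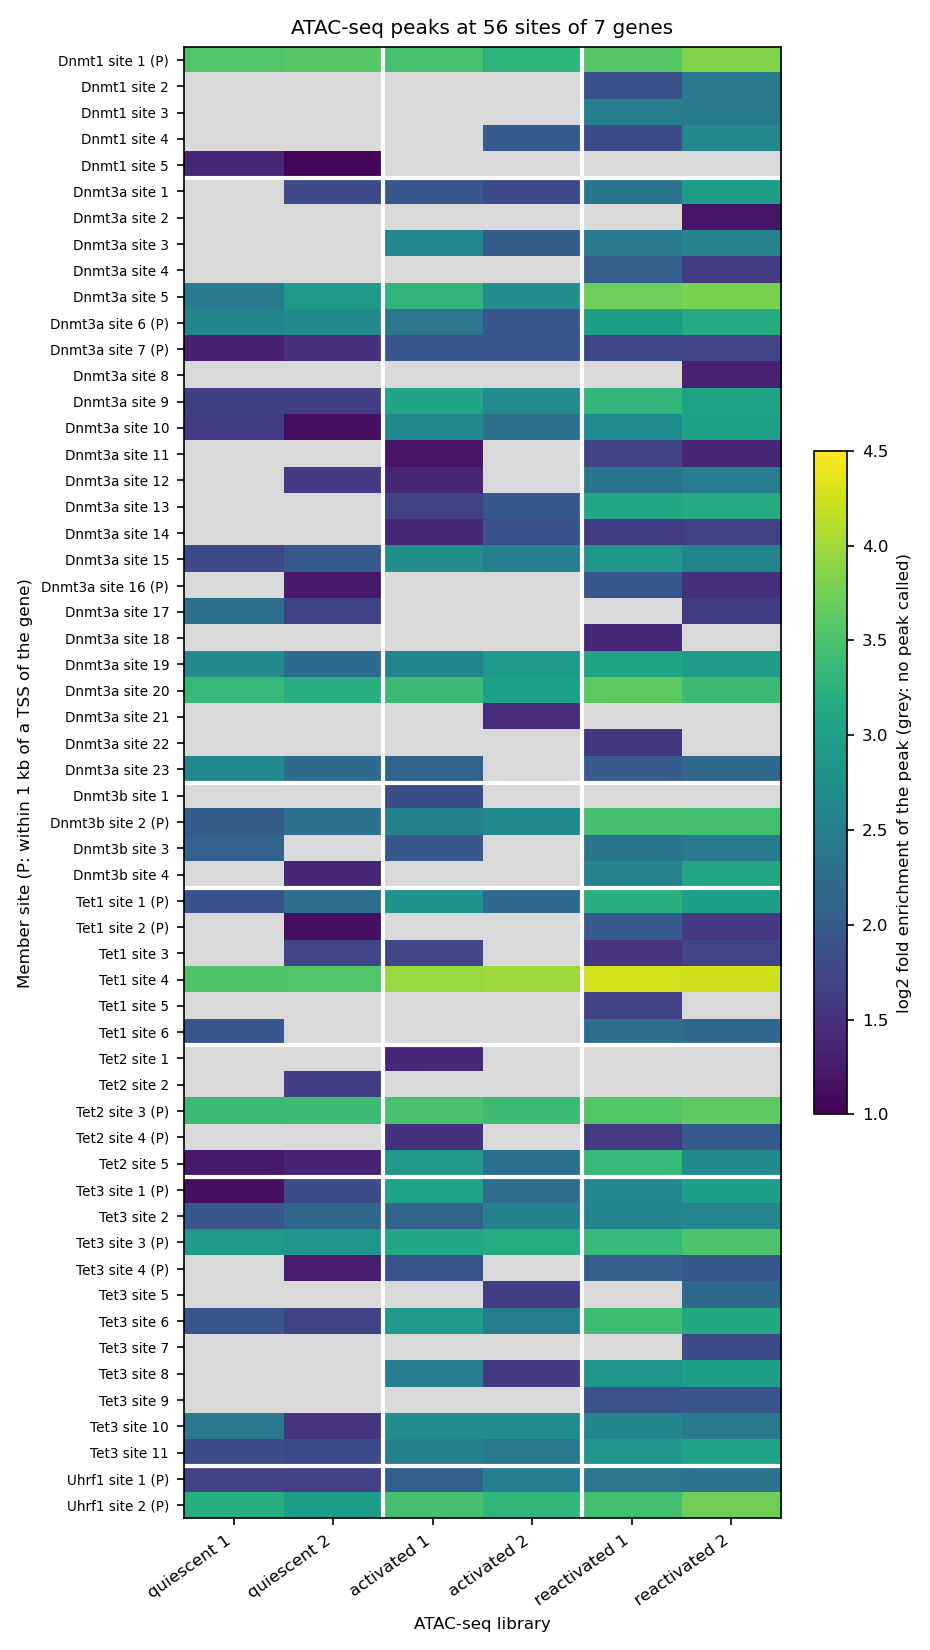
Log2 fold enrichment (colour) of each of the 56 ATAC-seq sites (vertical axis, grouped by gene, P for promoter sites) in the 6 libraries (horizontal axis: 2 quiescent, 2 activated, 2 reactivated), in grey where no peak was called. From left to right 27, 33, 36, 30, 46 and 48 sites had a peak, and Tet1 site 4 has the highest values in each column but those of the quiescent libraries.

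More of the sites were open in reactivated than in the other states. Of the 56 sites, 25 were open in quiescent cells (44.6%), 27 in activated cells (48.2%) and 43 in reactivated cells (76.8%). Over all sites the shares were 31.7%, 29.1% and 61.1%, so the same order of reactivated above the others ran through the whole data set with its longer reactivated lists. When each list was cut to the same number of its strongest peaks, the count of sites open in some states and closed in others fell from 17 of 56 to 10 of 43. Between quiescent and activated cells 4 sites were closed in quiescent and open in both activated and reactivated cells (Dnmt3a sites 3 and 13 and Tet3 site 8 among them, 7.14%, against 3.89% of all sites), and 2 sites were open in quiescent and closed in activated cells (Dnmt1 site 5 and Dnmt3a site 17, 3.57%, against 6.26%). A further 4 sites were open in reactivated cells alone (Dnmt1 sites 2 and 3, Dnmt3a site 4 and Tet3 site 9, 7.14%, against 14.8%).

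Among the genes of maintenance methylation, Dnmt1 had 5 sites and Uhrf1 had 2. Dnmt1 site 1 (chr9:20952121-20953247), which covers 3 of the 4 annotated TSSs of the gene whose product copies methylation at the replication fork, had fold enrichments of 11.8 and 12.1 in quiescent cells, 11.1 and 9.56 in activated and 12.1 and 14.3 in reactivated cells. Both activated values lay below both quiescent ones, and the reactivated values reached the highest before scaling but were the lowest relative to the library medians. The TSS farthest upstream had no peak within 1 kb in any library. The other 4 Dnmt1 sites were all intronic, and peaks were called there in some states only, in lists of unequal length. Site 2, 7784 bp downstream of the nearest TSS, had no peak in quiescent or activated cells and values of 3.69 and 5.42 in reactivated cells, and site 3 likewise had values of 5.63 and 5.46 in reactivated cells alone. Site 4 had 1 peak in activated cells (4.05, in replicate 2) and 3.52 and 6.28 in reactivated cells. All 3 sites of this cluster had no peak in either quiescent library. Site 5, 17609 bp downstream, showed the opposite arrangement with weak quiescent peaks of 2.62 and 2.06 and none elsewhere, values close to the lowest in those lists. In its own list the reactivated replicate 1 peak of site 2 ranked at the 28.9 percentile and that of site 4 at 25.4, and the part of list length in these calls was not tested.

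Uhrf1, the hemimethylation reader that brings DNMT1 to replicating DNA, had no distal site. Its 2 sites lie at separate start sites of the gene, site 1 at chr17:56303101-56303606 and site 2 at chr17:56303850-56304556. Site 1 had fold enrichments of 3.19 and 3.22 in quiescent cells, 4.21 and 5.63 in activated and 5.25 and 5.08 in reactivated cells. Site 2 had 9.24 and 7.73, 11.1 and 9.86, and 10.8 and 13.4. The internal start site was therefore the more enriched of the pair in each of the 6 libraries, and both sites were lowest in the quiescent libraries before scaling to the library medians.

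The de novo methyltransferase genes differed in how many sites they had. Dnmt3a had 23 sites, the most of the 7 genes, and Dnmt3b had 4. The Dnmt3a sites spread from 26032 bp upstream of its first TSS used here (chr12:3806527) across the gene body and beyond its end. The annotated gene body begins earlier, at chr12:3806007. Dnmt3a also has the largest number of annotated TSSs of the set (13), of which 4 had a peak within 1 kb in all 6 libraries, 1 in some libraries and 8 in none. Sites 1 to 3 upstream of Dnmt3a lie inside the neighbouring gene Dtnb, although their nearest TSS is that of Dnmt3a.

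**Figure D2:**
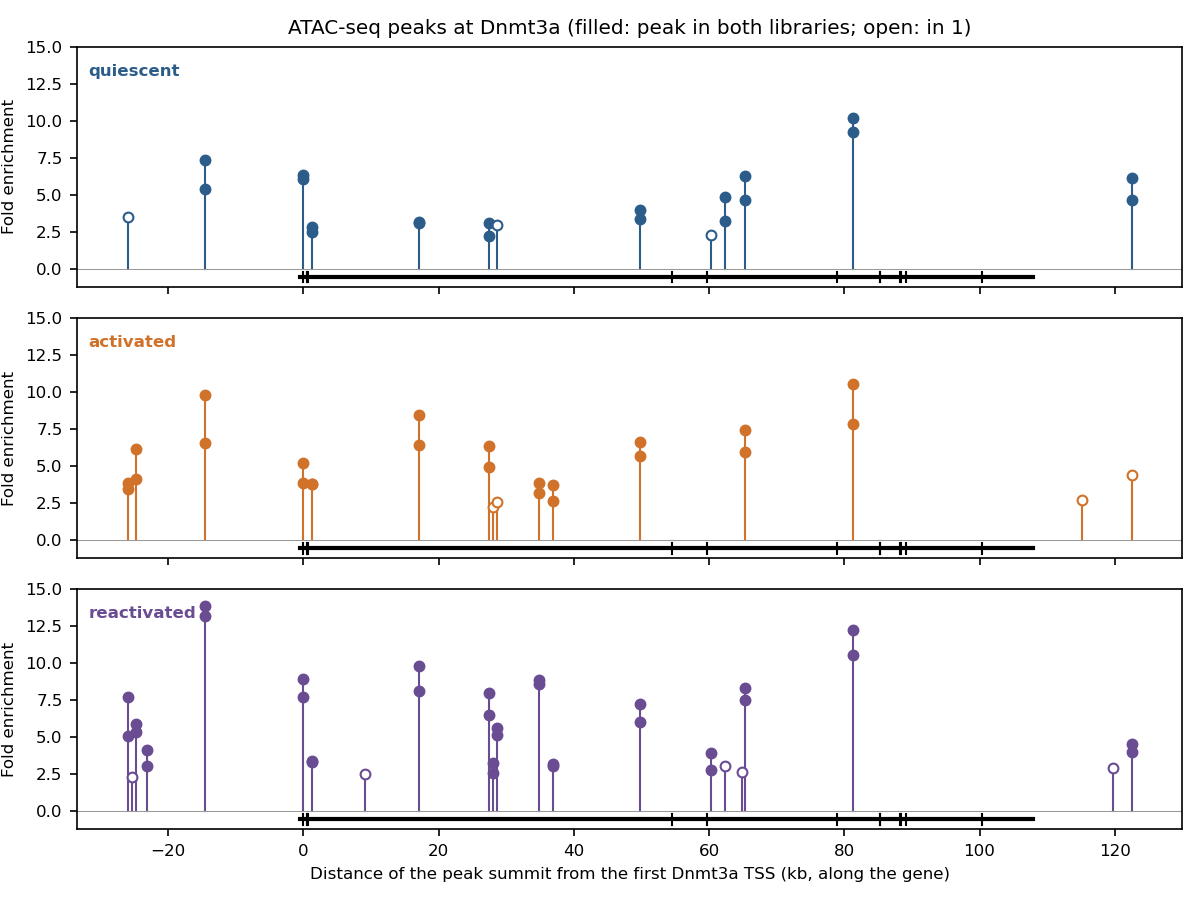
Fold enrichment (vertical axis) of the Dnmt3a sites against distance in kb from the first TSS of the gene used here (horizontal axis). There is a panel per state and a point per library, filled where both libraries had a peak and open where 1 had. The thick line is the gene body with a tick at each annotated TSS. Intronic sites 9 and 10 stand higher in activated and reactivated than in quiescent cells, and more sites have points in the reactivated panel.

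The promoter of Dnmt3a is held by sites 6 and 7, and a difference between the 2 sites was not tested. Site 6 (chr12:3806287-3807492) had fold enrichments of 6.09 and 6.35 in quiescent cells, 5.21 and 3.84 in activated and 7.70 and 8.93 in reactivated cells. It was lower in both activated libraries than in either quiescent library. Site 7 (chr12:3807496-3808366), immediately downstream, had 2.47 and 2.82, 3.83 and 3.79, and 3.38 and 3.32, with the quiescent values lowest before scaling and the reactivated values lowest relative to the library medians.

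In the introns of Dnmt3a the clearest differences were at sites 9 and 10. Site 9 (chr12:3823246-3823742), 16379 bp downstream of the nearest TSS, had fold enrichments of 3.16 and 3.13 in quiescent cells, 8.43 and 6.43 in activated and 9.84 and 8.15 in reactivated cells. Site 10 (chr12:3833745-3834264), 26865 bp downstream, had 3.09 and 2.22, 6.36 and 4.98, and 6.49 and 7.99. At both sites every activated and reactivated value was above every quiescent value. The pileup of Tn5 fragments at site 9 was 23 and 40 in quiescent cells, 66 and 47 in activated and 108 and 73 in reactivated cells, where quiescent replicate 2 is the library with the higher background.

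Other Dnmt3a sites were present in some states only. Site 13 had no quiescent peak, 3.18 and 3.89 in activated and 8.57 and 8.86 in reactivated cells. Site 3 had 6.18 and 4.11 in activated and 5.37 and 5.93 in reactivated cells with no quiescent peak. Site 17 (chr12:3868668-3869250) was the reverse, with 4.89 and 3.22 in quiescent cells, none in activated cells and 3.04 in reactivated replicate 2. Sites 3 and 13 thus had no quiescent peak and site 17 no activated peak. Sites 5, 15, 19 and 20 had a peak in every library, with 5.39 to 13.8 at site 5, 3.41 to 7.25 at site 15 and 4.67 to 8.33 at site 19. Site 20, the strongest quiescent site of the gene, had 10.2 and 9.26, 10.5 and 7.86, and 12.2 and 10.5. Sites 1, 12 and 23 had peaks in 5, 4 and 5 libraries, all including both reactivated ones, with values of 3.43 to 7.73, 2.59 to 5.59 and 4.00 to 6.18.

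Dnmt3b, which acts chiefly in the early embryo, had an accessible promoter in every state. Its site 2 (chr2:153649201-153649981) had fold enrichments of 4.08 and 4.97 in quiescent cells, 5.84 and 6.39 in activated and 11.1 and 10.8 in reactivated cells. The 3 states did not overlap before scaling to the library medians, and the scaled activated values overlapped those of both other states. The intronic site 3 had a peak in 1 quiescent and 1 activated library and in both reactivated libraries (5.13 and 5.44). Site 4 had a peak of 2.60 in 1 quiescent library, none in activated cells and 5.88 and 8.45 in reactivated cells.

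Among the TET genes, the strongest site of the set in activated and reactivated cells was distal. Tet1 site 4 (chr10:62865178-62865888), in an intron 14595 bp downstream of the nearest TSS, had fold enrichments of 11.6 and 11.7 in quiescent cells, 15.6 and 15.8 in activated and 19.2 and 19.0 in reactivated cells. It ranked between the 96.3 and 99.7 percentile of peaks in each library. The promoter site of Tet1, site 1 (chr10:62886476-62887531), had 3.68 and 4.81, 7.03 and 4.56, and 9.28 and 7.73, so that its quiescent and activated values overlapped. Site 3, close to site 4, had 1 quiescent and 1 activated peak (3.32 and 3.37) and 2.89 and 3.32 in reactivated cells. Of the 8 annotated Tet1 TSSs, 6 had no peak within 1 kb in any library.

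Tet2, the TET gene whose product lacks the CXXC domain, had its strongest site at the promoter and 1 intronic site that differed between states. The promoter site 3 (chr3:133544017-133545174) had 10.4 and 10.5 in quiescent cells, 11.3 and 10.5 in activated and 11.8 and 12.4 in reactivated cells, and its quiescent and activated values were close. The intronic site 5 (chr3:133516197-133516524), 28024 bp downstream of the nearest TSS, had 2.37 and 2.52, 7.43 and 4.85, and 10.1 and 6.38. All activated and reactivated values at site 5 were above the quiescent ones, which were among the lowest in their lists in replicate 1 and low in replicate 2. Its pileups were 17 and 32, 55 and 33, and 75 and 47, so by pileup alone the activated value of replicate 2 was close to that of quiescent replicate 2.

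Tet3, the TET gene that is most highly expressed in the adult brain, had 11 sites and promoters at an upstream and a downstream TSS. The upstream site 1 (chr6:83455806-83457157) had fold enrichments of 2.22 and 3.52 in quiescent cells, 8.19 and 4.76 in activated and 6.21 and 7.81 in reactivated cells. The value in quiescent replicate 1 was among the lowest in its list, at the 1.17 percentile. The downstream site 3 (chr6:83441252-83442028) had 7.39 and 7.07, 8.48 and 8.94, and 10.1 and 11.5. The downstream promoter was the more enriched in each library. Before scaling to the library medians, the upstream one was lower in both quiescent libraries than in any other. Its scaled quiescent and reactivated values overlapped.

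Of the Tet3 introns, site 6 (chr6:83427938-83428463) had 3.81 and 3.21 in quiescent cells, 7.33 and 5.56 in activated and 10.7 and 8.77 in reactivated cells. Site 8 (chr6:83423799-83424105) had no quiescent peak, 5.65 and 2.99 in activated and 7.06 and 7.79 in reactivated cells. The quiescent values of site 6 were its lowest, and site 8 had none. Site 10 (chr6:83412664-83413413) had 5.28 and 2.90, 6.55 and 6.58, and 6.07 and 5.38, with the quiescent replicates far apart. Sites 2 and 11 had a peak in every library, between 3.85 and 6.12 and between 3.44 and 8.16, and site 5 had 3.14 in activated replicate 2 and 4.58 in reactivated replicate 2.

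Promoter sites beyond these were weak and were seen in part of the libraries. Dnmt3a site 16, 650 bp from an internal TSS, had a peak of 2.33 in quiescent replicate 2 and 3.91 and 2.77 in reactivated cells. Tet1 site 2 had 2.22 in quiescent replicate 2 and 3.96 and 2.98 in reactivated cells, and Tet2 site 4 had 2.86 in activated replicate 1 and 3.04 and 3.99 in reactivated cells. Tet3 site 4 had 2.42 in quiescent replicate 2, 3.76 in activated replicate 1 and 4.20 and 3.87 in reactivated cells. At all 4 the reactivated libraries were the only state with both peaks. The same arrangement held at the distal sites Tet1 site 6 (3.81 in quiescent replicate 1, then 4.80 and 4.52 in reactivated cells) and Dnmt3a site 11 (2.27 in activated replicate 1, then 3.29 and 2.59). Open in reactivated cells alone were Dnmt3a site 4 (4.16 and 3.04) and Tet3 site 9 (3.71 and 3.81).

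**Figure D3:**
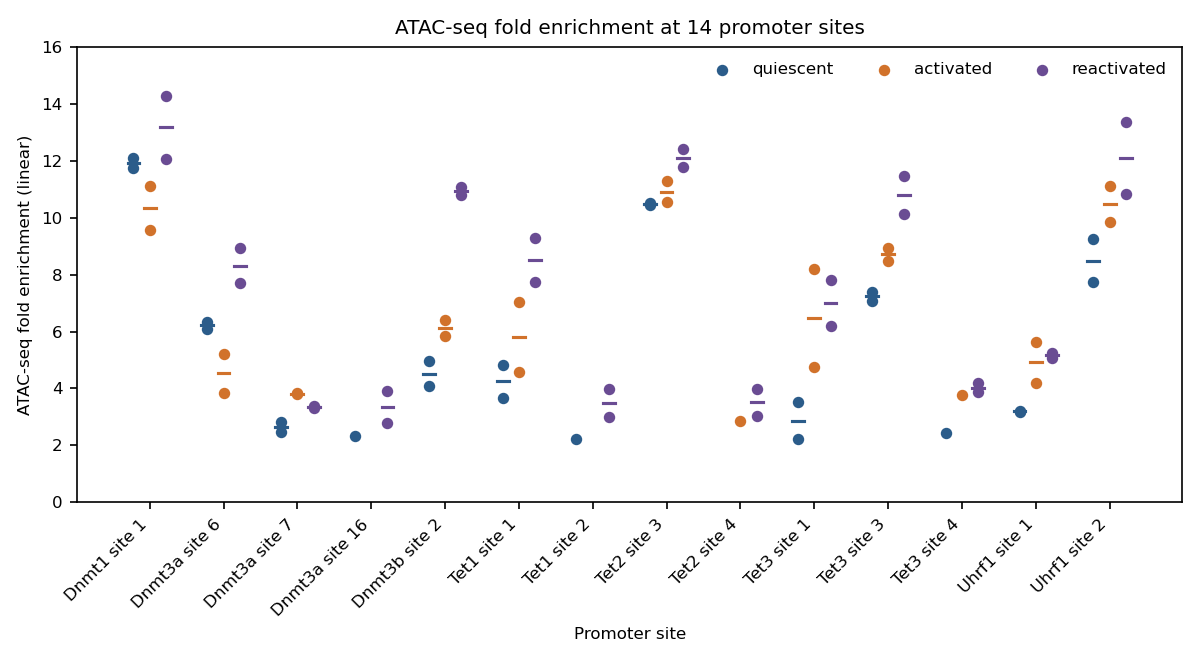
ATAC-seq fold enrichment (vertical axis, linear) at the 14 promoter sites (horizontal axis) by state, with a point per library and a bar at the mean where both libraries had a peak. Dnmt1 and Tet2 stand highest in quiescent cells, and the upstream Tet3 promoter rises from 2.22 and 3.52 in quiescent to 8.19 and 4.76 in activated cells. The 2.22 is among the lowest values in its list.

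The difference between activated and quiescent cells was tested at the 22 sites that had a peak in all 6 libraries. Relative to the median of each library, 4 of the 22 rose in activated cells and 1 fell. The 4 were intronic sites 9 and 10 of Dnmt3a, the intronic site 5 of Tet2 and the upstream promoter of Tet3, and the 1 was the Dnmt3a promoter site 6. The test was limma on log2 fold enrichment over 23116 sites genome-wide, of which 13.4% passed at an adjusted p of 0.05 in either direction, 6.35% up and 7.05% down, so the share of 5 of 22 was read against that background. Among all promoter sites 6.23% passed and among all distal sites 20.2%. The median log2 difference was 0.21 over the 22 sites and -0.07 over all tested sites.

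Dnmt3a site 9 differed by 1.01 on the log2 scale (standard error 0.22, 2.01-fold, limma adjusted p = 0.00326), and it passed in each of the 14 alternatives that tested it, with an adjusted p of at most 0.0344. Tet2 site 5 differed by 1.07 (standard error 0.26, 2.11-fold, limma adjusted p = 0.00611), Tet3 site 1 by 0.94 (standard error 0.27, 1.92-fold, adjusted p = 0.02) and Dnmt3a site 10 by 0.88 (standard error 0.24, 1.84-fold, adjusted p = 0.0146). Dnmt3a site 6 had the opposite sign, at -0.70 (standard error 0.22, limma adjusted p = 0.0337). These 4 calls depended on single libraries. Tet2 site 5 missed the threshold without quiescent replicate 1 or activated replicate 1 (limma adjusted p = 0.0805 and 0.0643), and Tet3 site 1 without the same libraries (0.28 and 0.178). Dnmt3a site 10 missed it without quiescent replicate 2 or activated replicate 1 (limma adjusted p = 0.151 and 0.0636), and Dnmt3a site 6 without any 1 of the 6 libraries (limma adjusted p = 0.0549 to 0.174). With mean enrichment Tet3 site 1 (0.68) and Dnmt3a site 6 (-0.27) missed it (limma adjusted p = 0.106 and 0.454), and Dnmt3a site 6 also with only the 4 libraries compared (0.0589) and with pileup (0.0749). Leaving out any 1 of the 6 libraries lowered the number of called sites at the 7 genes and also genome-wide.

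Near the threshold were Tet3 site 6, with a log2 difference of 0.65 (limma adjusted p = 0.0554), and Dnmt1 site 1, with -0.43 (limma adjusted p = 0.0531). On the scaled values, 9 of the 22 sites had both activated libraries above both quiescent ones and 4 had both below, where 21.2% and 31.9% of all tested sites did (53.0% in either direction). With 2 libraries against 2, an exact permutation test of any single site cannot go below p = 0.333, so all p-values rest on the spread pooled over the genome. Without scaling to the library medians the split over all sites was 2186 up and 442 down, in place of 1469 and 1629, and the sites of the 7 genes called were 5 up and 0 down, with Dnmt3a site 6 still below 0. The promoters of Dnmt3b, Tet1, Tet2, Uhrf1 and the downstream Tet3 TSS did not pass the test, with log2 differences between -0.16 and 0.38 across sites.

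**Figure D4:**
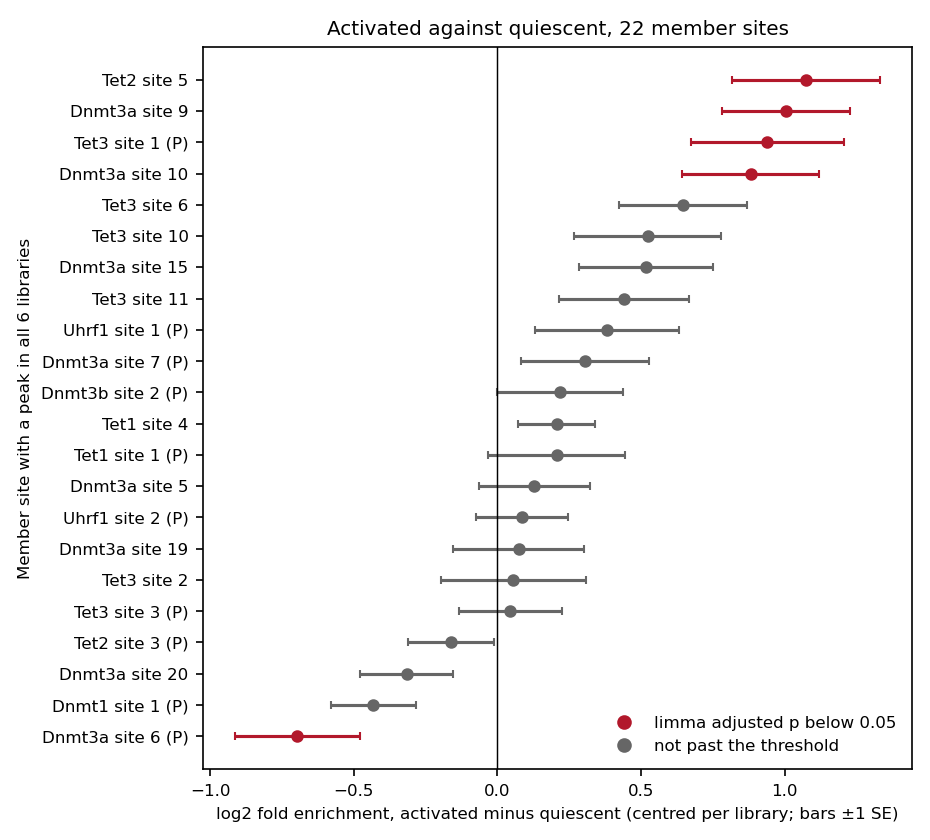
Log2 difference, activated minus quiescent, of fold enrichment relative to the library median (horizontal axis) for each of the 22 sites with a peak in all 6 libraries (vertical axis, P for promoter sites). Bars are 1 standard error to each side, and red points mark the 5 sites with a limma adjusted p below 0.05, of which 4 are above 0 and Dnmt3a site 6 is below.

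Reactivated cells were compared with activated cells to ask whether the sites returned to the activated state. Relative to the library medians 4 of the 22 sites were lower in reactivated cells, against 14.5% of all tested sites (22.2% in either direction), and 0 were higher, against 7.66%, also at an unadjusted p below 0.05. These were Dnmt3a site 7 (log2 difference -0.84, limma adjusted p = 0.0112), Tet3 site 10 (-0.85, 0.0211), the Tet2 promoter site 3 (-0.51, 0.0197) and Uhrf1 site 2 (-0.45, 0.0467), of which Tet2 site 3 and Uhrf1 site 2 turned to 0.15 and 0.20, and the others moved to -0.19 and -0.20, when the libraries were not scaled. The median fold enrichment of the reactivated libraries was higher throughout: without scaling the median difference over all sites was 0.55 in place of -0.11, and 4 of the 22 sites were called, all higher in reactivated cells (12166 sites up and 109 down over the genome, in place of 1771 and 3363). By site, the call was lost with quantile normalization at Dnmt3a site 7 (limma adjusted p = 0.0923) and Uhrf1 site 2 (0.0943), without a trend at Tet2 site 3 (0.0614) and Uhrf1 site 2 (0.0961), with mean enrichment at Tet2 site 3 (0.565), Tet3 site 10 (0.114) and Uhrf1 site 2, and at all 4 with pileup. The 4 sites each missed the threshold without activated replicate 2, reactivated replicate 1 or reactivated replicate 2, at log2 differences of -0.97 to -0.33. The share of all tested sites called in these settings is not given here. Relative to the medians 16 of the 22 sites had both reactivated libraries below both activated ones and 1 had both above, where 40.6% and 23.3% of all sites did (63.8% in either direction). Dnmt3a site 9 and Tet2 site 5, which were higher in activated than quiescent cells, had log2 differences of -0.37 and -0.23 here and did not pass (limma adjusted p = 0.233 and 0.549). Tet3 site 1 and Dnmt3a site 10, the other sites higher in activated cells, had -0.50 and -0.30 and did not pass either (limma adjusted p = 0.182 and 0.386).

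Against quiescent cells, 3 of the 22 sites were higher and 3 lower in reactivated cells relative to the library medians, where 11.5% and 25.7% of all tested sites were (37.2% in either direction). The higher sites were Dnmt3a site 9 (log2 difference 0.64, limma adjusted p = 0.0278), Tet2 site 5 (0.85, 0.0127) and Tet3 site 6 (0.59, 0.0386). With pileup over the genome-wide background in place of fold enrichment none of the 3 passed (0.54, 0.33 and 0.57, limma adjusted p = 0.101, 0.385 and 0.0771), and Tet3 site 6 also missed the threshold with quantile normalization (0.0577) and mean enrichment (0.0715). Dnmt3a site 10 and Tet3 site 1, higher in activated cells, were at 0.59 and 0.44 here and did not pass (limma adjusted p = 0.0561 and 0.197). The lower ones were the Dnmt1 promoter (-0.74, limma adjusted p = 0.000592), Tet2 site 3 (-0.67, 0.00151) and Dnmt3a site 20 (-0.65, 0.0034), which turned to 0.14, 0.21 and 0.22 without scaling. With mean enrichment Tet2 site 3 and Dnmt3a site 20 missed the threshold (-0.30 and -0.42, limma adjusted p = 0.272 and 0.316), as did Tet2 site 3 with pileup (-0.17, 0.46). On the scaled values 6 of the 22 sites had both reactivated libraries above both quiescent ones and 11 had both below, where 25.1% and 45.3% of all sites did (70.3% in either direction). The comparison shares its quiescent libraries with the activated comparison, so the 2 are not independent. Without quiescent replicate 1, quiescent replicate 2 or reactivated replicate 1 the count was 3, and Dnmt3a site 9, Tet2 site 5 and Tet3 site 6 each missed the threshold in all of these settings (limma adjusted p = 0.0515 to 0.327). Tet3 site 6 also missed it without reactivated replicate 2 (limma adjusted p = 0.0589), as did Dnmt3a site 20 (0.0773). Without scaling 14 of the 22 sites were called, all higher in reactivated cells (15756 sites up and 126 down over the genome, in place of 2649 and 5940), and the median over all sites was 0.72 in place of -0.15.

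H3K4me3 covered a promoter of each of the 7 genes in both states, where 12320 promoter regions were paired between the states genome-wide. The share of all genes with the mark is not given here. Regions were paired between the 2 libraries, which have no replicates, so only sizes are given and there is no test. Fold enrichment went from 46.7 in quiescent to 33.9 in activated cells at Dnmt1, from 44.5 to 38.7 at Uhrf1, from 42.7 to 42.1 at Dnmt3b, from 52.9 to 44.8 at Tet1 and from 51.3 to 51.4 at Tet2. Dnmt3a had the lowest quiescent enrichment of the set and went from 19.3 to 29.9. At Tet3 the upstream promoter went from 23.7 to 32.6 and the downstream one from 31.1 to 23.3.

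Across all paired regions the median ratio of activated to quiescent was 0.927, and relative to it Dnmt3a was 1.67-fold higher, at the 99.2 percentile of promoter regions. It was the 1 of 8 paired promoter regions past 1.5-fold, where 5.26% of all promoter regions were, 2.01% higher and 3.25% lower. The upstream Tet3 promoter was 1.48-fold relative to the median, just inside the limit, and the downstream one 0.809-fold. Measured by the width of the region in place of its enrichment, the 1 of 8 past 1.5-fold was the downstream Tet3 promoter. It covered 2276 bp in quiescent and 3725 bp in activated cells (1.75-fold relative to the median), and Dnmt3a was at 1.01-fold. By width 4.89% of all promoter regions were past 1.5-fold, 118 wider and 485 narrower in activated cells, of 12320. The height and width of the mark thus singled out different promoters. At the Dnmt3a promoter H3K4me3 was higher in the activated library, ATAC-seq site 6 was lower, and site 7, under the same H3K4me3 region, was at 0.31 without passing the test (limma adjusted p = 0.401), with both activated values above both quiescent ones, and at the upstream Tet3 promoter both were higher.

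**Figure D5:**
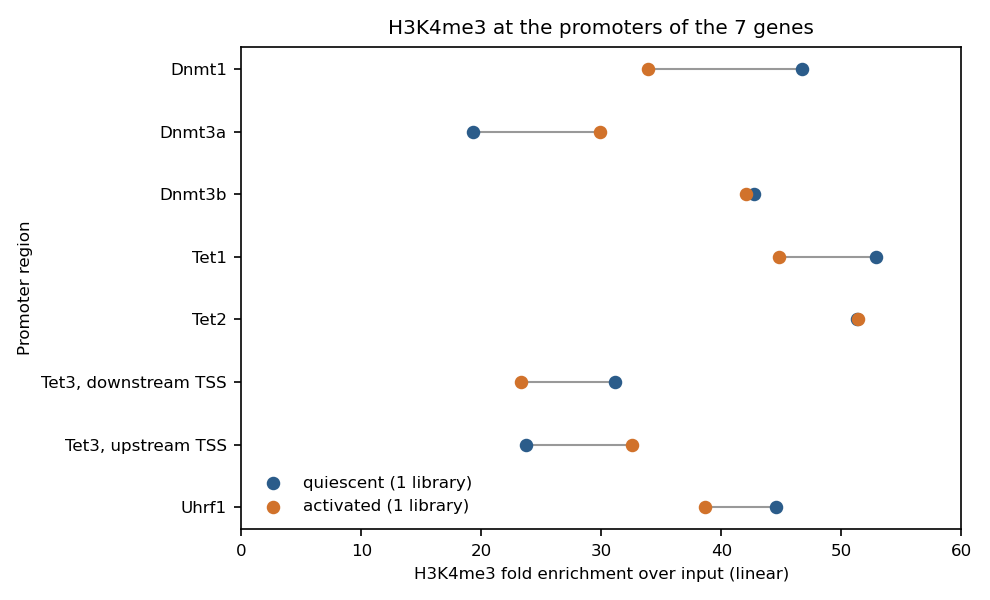
H3K4me3 fold enrichment over input (horizontal axis, linear) of the 8 paired promoter regions (vertical axis), with a point for the 1 quiescent and the 1 activated library joined by a line. The activated point lies to the right of the quiescent one by the most at Dnmt3a (19.3 to 29.9) and the upstream Tet3 promoter (23.7 to 32.6), and to the left by the most at Dnmt1 (46.7 to 33.9).

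Away from promoters, Tet1 had an H3K4me3 region over its intronic site 4 in both states, with a fold enrichment of 10.3 in quiescent and 9.39 in activated cells. This is the site with the highest accessibility of the set in the activated and reactivated libraries. Dnmt3a had 3 weak distal H3K4me3 regions in quiescent cells alone (3.95, 3.98 and 3.18), which overlapped ATAC-seq sites 5, 11 and 20.

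The windows around the 56 summits were searched on both strands for 11 motifs: an AP-1 site (TGANTCA), the E-boxes CAGCTG and CACGTG, an NFI half-site (TTGGCA), a SOX core (CATTGT), an RFX half-site (GTTGCCA), an E2F site (TTCCCGC), an NRF1 core (GCATGCG), the GC box GGGCGG, the CCAAT box (CCAAT) and an ETS site (CCGGAAG). Matches may overlap one another, as CCAAT and the NFI half-site can. The E-box CAGCTG was in 14 of the 56 windows (25.0%), against 18.3% of all windows. It is in each of the 3 windows of the Dnmt1 intronic cluster (sites 2, 3 and 4), with 2 copies in site 2, and in Tet2 site 5 and Dnmt3a site 13. The AP-1 letters are in Dnmt1 site 4 and Dnmt3a sites 9 and 13, among the sequences shown, and in 4 of the 56 windows (7.14%), close to the 6.11% of all windows. The GC box was in 10 of the 14 promoter windows (71.4%), against 45.7% of all promoter windows. The NRF1 core was in 3 promoter windows, those of Dnmt1 site 1, Tet2 site 3 and Uhrf1 site 2, against 2.87% of promoter windows. The E2F letters, which cell cycle genes often carry, were in the Uhrf1 promoter and in 3.19% of the windows before all TSSs. Of the remaining motifs the NFI half-site was in 6 of the 56 windows (10.7%, against 15.4% of all windows), the CCAAT box in 8 (14.3%, against 18.8%) and in 5 of the 14 promoter windows (35.7%, against 23.4%), the SOX core in 1 (1.79%, against 9.11%), the RFX half-site in 2 (3.57%, against 4.03%) and the ETS letters in 0 (against 2.57%). The E-box CACGTG was in 4 (7.14%, against 2.68%). None of these shares was tested. These are matches of letters and no binding was measured.

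The promoters of 34 other genes of the DNA methylation pathway were examined alongside, comprising readers, cofactors, regulators of the enzymes and genes of methyl donor and 2-oxoglutarate metabolism. Of these, 28 had a promoter peak in all 6 libraries, 4 in some libraries (Hells, Zbtb4 and Zfp57 among them) and 2 in none (Dnmt3l and Dppa3, both known from germ cells and early embryos). Of all protein-coding genes 52.5% had a promoter peak in all 6 libraries and 32.5% in none. Hells, the chromatin remodeller needed for de novo methylation, had no quiescent ATAC-seq peak, 4.11 and 4.28 in activated and 8.23 and 11.9 in reactivated cells. Its promoter had an H3K4me3 region in both states measured, at 49.4 in quiescent and 43.1 in activated cells.

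In the comparison of activated with quiescent cells, 2 of the 32 tested promoter sites of these genes passed, where 6.23% of all promoter sites did. Zbtb38, which encodes a methyl-CpG binding zinc finger protein, was higher at its site 1 (3.16 and 3.52 in quiescent cells, 9.31 and 6.27 in activated and 15.98 and 18.1 in reactivated cells), with a log2 difference of 0.98 (limma adjusted p = 0.00148). Idh1, which makes the 2-oxoglutarate that TET enzymes need, was lower at its site 1 (17.03 and 15.3, then 14.2 and 12.8). The log2 difference was -0.48 (limma adjusted p = 0.0124). This call was lost without scaling, where the 2 sites called were both higher. Without quiescent replicate 1 or activated replicate 1 it was lost too, at -0.49 and -0.41. It was also lost with quantile normalization, without a trend, with mean enrichment and with pileup (limma adjusted p = 0.0916 to 0.154). Zbtb38 site 1 kept its call in all 14 alternatives.

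Relative to the library medians, 8 of the 32 sites passed, all lower in reactivated than in activated cells, where 23.1% of all promoter sites passed in either direction. The largest differences were at Idh1 site 2 (log2 -0.72), Mat2a, which makes S-adenosylmethionine (-0.65), and Gadd45g, linked to demethylation (-0.60). Without scaling Gadd45g turned to 0.05, Idh1 site 2 moved to -0.07 and Mat2a to -0.0002. Idh1 site 2 and Mat2a also lost their calls with mean enrichment and with pileup (limma adjusted p = 0.065 to 0.31). Gadd45g lost its call with these, without a trend and with a −log10 q of at least 10 (limma adjusted p = 0.0545 to 0.22). Mat2a also missed the threshold without either reactivated library, and Gadd45g without any 1 activated or reactivated library. The other 5 (Mbd2, Mbd3, Trim28, Gadd45a and Pcna) were all above 0 without scaling. In that setting 14 of the 32 sites passed, all higher in reactivated cells, as were most sites called genome-wide. With scaling, fewer of the 32 sites passed without any 1 activated or reactivated library, and fewer sites were called genome-wide too. Against quiescent cells 17 sites passed (37.7% of all promoter sites did), 2 higher (Zbtb38 sites 1 and 2, 1.48 and 0.57) and 15 lower, led by Idh1 site 2 (-0.96, which moved to -0.085 without scaling) and the methyl-binding protein gene Mbd3 (-0.80, which turned to 0.07). Without scaling 18 sites passed, all higher in reactivated cells, as were most sites called genome-wide in that setting. With scaling, fewer of the pathway sites passed without any 1 quiescent or reactivated library, and fewer sites were called genome-wide too. In H3K4me3, 2 of 34 paired promoter regions of these genes passed 1.5-fold relative to the median, both lower in activated cells: Gadd45b (46.7 to 26.0) and Gadd45g (55.7 to 28.9). This share is close to the 5.26% of all promoter regions. By width 1 of the 34 passed, where 4.89% of all promoter regions did.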

How the data were processed

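ATAC-seq was available for 2 libraries in each of the 3 states, and H3K4me3 ChIP-seq for 1 library in quiescent and 1 in activated cells. Per the study's methods and processing notes, reads were trimmed with Trim Galore 0.4.0, aligned to mm10 with Bowtie2 2.2.5 and cleared of duplicates with Picard 1.88 and SAMtools 1.3.1, the authors called peaks per library with MACS, and reactivated reads were downsampled. The deposited peak lists give a fold enrichment (ratio of pileup to local background), a −log10 p-value and −log10 q-value, a peak score, and a summit offset. Input libraries were not used here beyond the authors' peak calls.

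Overlapping or abutting peaks on the autosomes, X and Y were merged into sites with pandas 2.3.3 under Python 3.11.15, and each site took its highest fold enrichment per library. Nearest TSSs are from GENCODE M21 and sequences from the RefSeq GRCm38.p6 assembly. Log2 fold enrichment, centred on each library's median, was tested with limma 3.58.1 (R 4.3.3, trended eBayes) at sites with peaks in all 6 libraries, with Benjamini-Hochberg adjustment over all sites at 0.05. The test was checked on simulated data. The study tested read counts, which were not used here. H3K4me3 regions were paired by overlap of 1 bp or more. A member site was described in full where it lay within 1 kb of a TSS, was called in any contrast, or was open in one state and closed in another, and a gene of the wider pathway where its promoter was called (at most 8 per contrast), had no peak, or differed in open states. Alternatives were another scaling, no scaling, eBayes without a trend, a replicate block, the libraries of 1 contrast alone, a stricter q, other merging, mean enrichment, lists of equal length and leaving out each library. The genes and lists were chosen with earlier results of these data known. Libraries are biological replicates per the study's methods, which state that collection was spread over several days and that the transposase came from a single batch. A few items are not reported here.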

Additional observations from a re-analysis of the deposited data

How the results depend on the processing

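Limits come first. The lists hold called peaks only, so read depth is not given by them, weak sites are missing by construction, and differences were tested only where all 6 libraries had a peak, which leaves sites closed in any state untested. Fold enrichment is relative to local background, and the reactivated libraries had higher medians that scaling removes. The replicate numbers did not pair the libraries (r = -0.001, 0.042 and -0.017 between states). With a replicate block 6, 5 and 6 of the 22 sites were called for activated against quiescent, reactivated against activated and reactivated against quiescent. Over all 23116 tested sites the counts were 3231, 5290 and 8731. Dnmt1 site 1 passed in the first comparison (limma adjusted p = 0.0453).

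The counts of open sites stayed within 1.5 times under each alternative run except that a −log10 q of at least 10 left 10 of 41 sites open in all 6 libraries (14397 of 66318 over all sites) and lists of equal length left 10 of 43 open in some states and closed in others (17416 of 65838). Leaving out each library gave 22 to 23 and 19 to 24. For activated against quiescent, 1 site of the 7 genes was called with the stricter q, 3 with mean enrichment and 1 to 4 without single libraries, and for the pathway genes 1 with quantile normalization, without a trend, with the stricter q or with mean enrichment and 1 to 2 without single libraries. For reactivated against activated the sites of the 7 genes were 2 with quantile normalization, without a trend or with mean enrichment. With the stricter q 0 were called (2 of 10 at an unadjusted limma p below 0.05, against 4944 of 14397 over all sites). With pileup over the genome-wide background, an alternative chosen after seeing the data, 0 were called (5 of 22 unadjusted, against 6788 of 23116). The count rose or fell when single libraries were left out. The pathway genes gave 14 without scaling (all higher in reactivated cells), 3 without a trend, with the stricter q or with pileup, 2 with mean enrichment and 2 to 8 without single libraries. For reactivated against quiescent the 7 genes gave 14 without scaling, 3 with the stricter q and 3 to 8 without single libraries, and the pathway genes 5 with quantile normalization, 9 with the stricter q or pileup, 7 with mean enrichment and 6 to 17 without single libraries. The cause of these changes was not tested, other than that fewer sites were tested under the stricter q. Over all sites, the counts of 3098, 5134 and 8589 became 1116, 2739 and 4745 with the stricter q, 1155, 2007 and 4596 with mean enrichment, and 2628, 12275 and 15882 without scaling. They became 2464, 4214 and 6401 with quantile normalization, 2554, 3830 and 7773 without a trend, and 3737, 3401 and 7228 with pileup.

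Without scaling these log2 differences turned positive. Reactivated against activated: Tet2 site 3 0.15, Uhrf1 site 2 0.20, Gadd45g 0.047, Mbd3 0.088, Trim28 0.11, Gadd45a 0.15 (0.14 with pileup), Mbd2 0.16 and Pcna 0.22. Reactivated against quiescent: Dnmt1 site 1 0.14, Dnmt3a site 20 0.22, Tet2 site 3 0.21, Mbd3 0.073, Gadd45g 0.083, Idh1 site 1 0.18, Pcna 0.24, Trim28 0.26 and Cxxc4 0.27 (0.41 with pileup).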
